A study of Mus musculus with 24 samples.

Results

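A set of 10 genes that mark the endothelium of the blood-brain barrier was followed through the hypothalamus and hippocampus of male C57BL/6J mice: Slc2a1, Mfsd2a, Cldn5, Adgrf5, Atp10a, Slc7a5, Slco1c1, Abcb1a, Pecam1 and Flt1. They are 10 of the 22274 genes of the deposited table, and all 10 passed the filter on low counts in every comparison. The genes were chosen by name with earlier results of these libraries known, and the first 6 are exactly those past the threshold in Sham+GH against Sham. The calls in that contrast are therefore given as a description only, and no test elsewhere is independent evidence, least of all where Sham or Sham+GH libraries are shared with it. Messenger RNA was sequenced from 24 libraries in 8 groups of 3. PEL is an electrical lesion of the pituitary stalk, made with cathodic current through a knife placed at the stalk, and the hypothalamic tissue held the supraoptic and paraventricular nuclei. The hypothalamic groups were Sham, labelled day 0, PEL_3d, taken on day 3, and PEL_10d, taken on day 10, and a matching group given growth hormone for each (Sham+GH, also labelled day 0, PEL_3d+GH and PEL_10d+GH). Hippocampus came from Sham and PEL_10d mice without growth hormone. Age and the dose and schedule of growth hormone are not stated in the sources used here. Nothing says that the 3 libraries of a group are separate animals, so the p-values measure only the spread between libraries, which may be technical.

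Brain capillaries are lined by endothelial cells joined by tight junctions, with little vesicular traffic and few fenestrae, so nutrients enter the brain through carriers and many drugs are pumped back into the blood. Wnt signals from neural cells through Fzd4, Adgra2 and Reck keep endothelial cells in this state, and pericytes and astrocyte endfeet help to hold it. In the hypothalamus the barrier is not uniform, since the nearby median eminence and posterior pituitary have fenestrated vessels. Among the genes followed here, Slc2a1 (GLUT1) carries glucose and Mfsd2a carries lysophospholipids with omega-3 fatty acids and restrains transcytosis. Slc7a5 is the catalytic chain of a large neutral amino acid carrier, Slco1c1 carries thyroxine, and Abcb1a is the efflux pump P-glycoprotein. Cldn5 is the main claudin of the barrier's tight junctions and Pecam1 an adhesion molecule of the endothelial junction. Flt1 is a receptor for VEGF-A, Adgrf5 an adhesion G protein-coupled receptor and Atp10a a phospholipid flippase. On GRCm38 the genes span Slc2a1 (ENSMUSG00000028645) at chr4:119108711-119137983, Mfsd2a (ENSMUSG00000028655) at chr4:122946850-122961188, Cldn5 (ENSMUSG00000041378) at chr16:18776847-18778262, Adgrf5 (ENSMUSG00000056492) at chr17:43360451-43459557, Atp10a (ENSMUSG00000025324) at chr7:58656166-58829420, Slc7a5 (ENSMUSG00000040010) at chr8:121881150-121907694, Slco1c1 (ENSMUSG00000030235) at chr6:141524368-141570177, Abcb1a (ENSMUSG00000040584) at chr5:8660077-8748575, Pecam1 (ENSMUSG00000020717) at chr11:106654217-106750628 and Flt1 (ENSMUSG00000029648) at chr5:147561604-147726011.

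The upstream sequences of Slc2a1, Mfsd2a and Cldn5 are shown because the first pair were the members whose libraries with growth hormone all lay above those without it in Sham, PEL_3d and PEL_10d, and Cldn5 was the member with a lower mean with it in all 3, though its libraries overlapped at day 10. They come from RefSeq on GRCm38.p6, read 5′ to 3′ on the strand of the gene, and end before the annotated transcripts. The Slc2a1 stretch is chr4:119108495-119108710 on the plus strand and has 216 bases, from -250 to -35 of the RefSeq start, since the GENCODE transcripts begin there. The Mfsd2a stretch is chr4:122961189-122961438 on the minus strand, and the Cldn5 stretch is chr16:18776597-18776846 on the plus strand. Capitals mark the letters CTTTGA, the core of a TCF/LEF site of the Wnt pathway.
Slc2a1: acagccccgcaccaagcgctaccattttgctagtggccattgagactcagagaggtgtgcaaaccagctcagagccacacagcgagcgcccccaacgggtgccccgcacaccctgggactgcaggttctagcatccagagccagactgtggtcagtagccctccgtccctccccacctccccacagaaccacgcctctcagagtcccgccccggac
Mfsd2a: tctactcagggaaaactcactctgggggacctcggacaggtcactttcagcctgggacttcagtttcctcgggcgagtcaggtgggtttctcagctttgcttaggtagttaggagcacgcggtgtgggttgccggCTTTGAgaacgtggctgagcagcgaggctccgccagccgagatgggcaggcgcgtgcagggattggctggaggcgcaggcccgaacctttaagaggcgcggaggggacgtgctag
Cldn5: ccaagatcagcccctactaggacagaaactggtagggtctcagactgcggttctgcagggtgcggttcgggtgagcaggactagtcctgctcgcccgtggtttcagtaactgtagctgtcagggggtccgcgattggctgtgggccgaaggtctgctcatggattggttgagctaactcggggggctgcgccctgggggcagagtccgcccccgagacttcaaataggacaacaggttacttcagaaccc
RefSeq promoters were matched for 8 of the 10 members, with 2 for Adgrf5, and Slc7a5 and Pecam1 were not listed. In the 250 bases before each start, both strands were searched for CTTTGA, for the STAT motif TTCNNNGAA and for the glucocorticoid receptor's palindromic motif. CTTTGA lay at -115 to -110 of Mfsd2a and at -153 to -148 and, on the other strand, -58 to -53 of Abcb1a, and was held by 13.8% of all 32851 promoters. No member window held the STAT motif, found in 7.02% of promoters, or the glucocorticoid receptor motif, found in 0.387%. These matches describe letters in a short window only. The RefSeq start of Atp10a lies inside the GENCODE gene and that of Abcb1a lies far upstream of it, so their windows may not be the promoters used in brain.

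Total counts ranged from 15095267 to 17973494 per library. Levels are given as normalised CPM, counts divided by the library's total and put on the CPM scale, after TMM scaling over all 24 libraries, and FPKM, which also divides by length, is used to compare genes. The library labelled Sham 1 did not carry the hypothalamic profile of its label, with 0.453 FPKM of Avp, the vasopressin precursor, 261 FPKM of Slc17a7, a glutamate transporter of cortical and hippocampal neurons, and 14320 FPKM of Ttr, the transthyretin of choroid plexus. The study left a Sham library out, and Sham below means replicates 2 and 3. The library labelled hippocampus Sham 1 carried 139 FPKM of Avp and 0.316 FPKM of Slc17a7 against at least 407 in the other hippocampal libraries, so each of these 2 libraries carried markers of the other tissue. Hippocampus Sham 1 is kept under its label, and calls that change without it are given both ways. The tissue field of hippocampus Sham 3 reads hypothalamus, but its 143 FPKM of Neurod6, a hippocampal neuron marker, is in the range of the other hippocampal libraries. PEL_10d+GH 3 held 5479 FPKM of Pomc against at most 80.2 in the other libraries. In bulk tissue, fewer cells of a type and less RNA per cell cannot be told apart.

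Slc2a1 had the highest level of the 10 genes per transcript length, at 32.4 ± 0.59 FPKM (SD, n = 2) in Sham. Cldn5 followed at 17.9 ± 0.60 and Slc7a5 at 15.7 ± 0.47, and the spreads of these 3 did not meet. Slco1c1 at 13.9 ± 0.43 and Flt1 at 12.2 ± 0.42 came next, also apart by more than their spread. Mfsd2a at 11.4 ± 0.94 and Adgrf5 at 10.5 ± 1.2 did not differ beyond their spread, and neither did Mfsd2a and Flt1. Abcb1a at 8.60 ± 0.12 and Pecam1 at 7.71 ± 0.63 lay below them, and Atp10a was lowest at 2.41 ± 0.081 FPKM. The lengths behind FPKM were not constant, since CPM per FPKM differed up to 1.44-fold between libraries for Adgrf5, 1.31-fold for Mfsd2a, 1.13-fold for Pecam1 and 1.09-fold for Slc2a1, and fold changes below rest on counts.

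**Figure D1:**
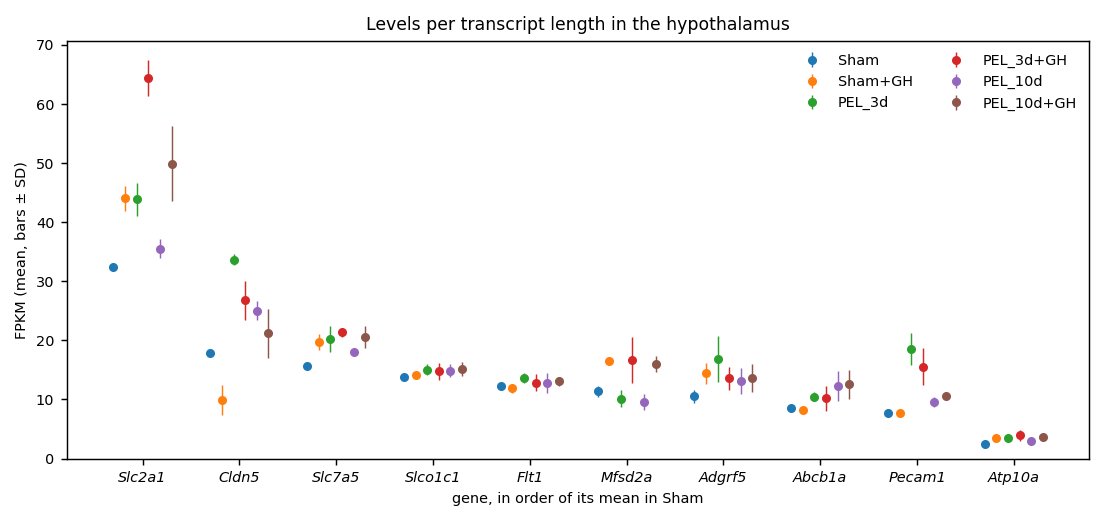
FPKM (linear axis) of the 10 genes in the 6 hypothalamic groups, as means with SD bars (n = 2 for Sham without Sham 1, n = 3 elsewhere), in order of the Sham mean. Slc2a1 stood highest in every group, and Cldn5 came next in each group but Sham+GH, where its mean was 9.93 FPKM.

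At 3 days after the lesion, 7 of the 10 genes were higher in PEL_3d than in Sham and none was lower (edgeR quasi-likelihood test, adjusted p under 0.05), where 40.5% of all 14905 genes tested passed in either direction and 3316 rose. Slc2a1, Adgrf5, Atp10a and Slc7a5 had passed upward against the same Sham libraries in the contrast used in choosing, so this count is not independent evidence. The median log2 fold change of the 10 was 0.38, against -0.01 over all genes tested. The 7 were Slc2a1, Cldn5, Adgrf5, Atp10a, Slc7a5, Abcb1a and Pecam1, and Mfsd2a, Slco1c1 and Flt1 did not pass. With the library labelled Sham 1 included, 3 of 10 passed, namely Pecam1, Cldn5 and Adgrf5, beside 11.4% of all genes. Without Sham 2 or without Sham 3 it was 4, these same genes and Slc2a1, beside 22.4% and 25.7% of all genes. At 10 days only Cldn5 passed in PEL_10d against Sham, with 9.4% of 14801 genes passing in either direction, and with Sham 1 included, without Sham 2 or without Sham 3 no member did, beside 1.84%, 1.36% and 2.02% of all genes. Between the times, Slc2a1, Cldn5 and Pecam1 were lower in PEL_10d than in PEL_3d and no member was higher, with 18.5% of 14807 genes passing in either direction and 12.2% lower.

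With growth hormone in both arms, 3 of 10 genes rose in PEL_3d+GH against Sham+GH, namely Slc2a1, Cldn5 and Pecam1, where 52.1% of 14743 genes passed in either direction and 26.9% rose. Without PEL_3d+GH 3, 6 passed, about the share of all genes in that fit, 59.1%, with Abcb1a and Flt1 added as rises and Mfsd2a as a fall. In PEL_10d+GH against Sham+GH, Cldn5, Abcb1a and Pecam1 rose, where 30.9% of 14686 genes passed in either direction and 17.7% rose. Slc2a1 and Pecam1 fell in PEL_10d+GH against PEL_3d+GH, where 15.6% of 14838 genes passed in either direction and 10.8% fell. That pair was not stable, since neither passed without PEL_10d+GH 1, PEL_10d+GH 2, PEL_3d+GH 1 or PEL_3d+GH 2, and only Slc2a1 passed without PEL_10d+GH 3.

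**Figure D2:**
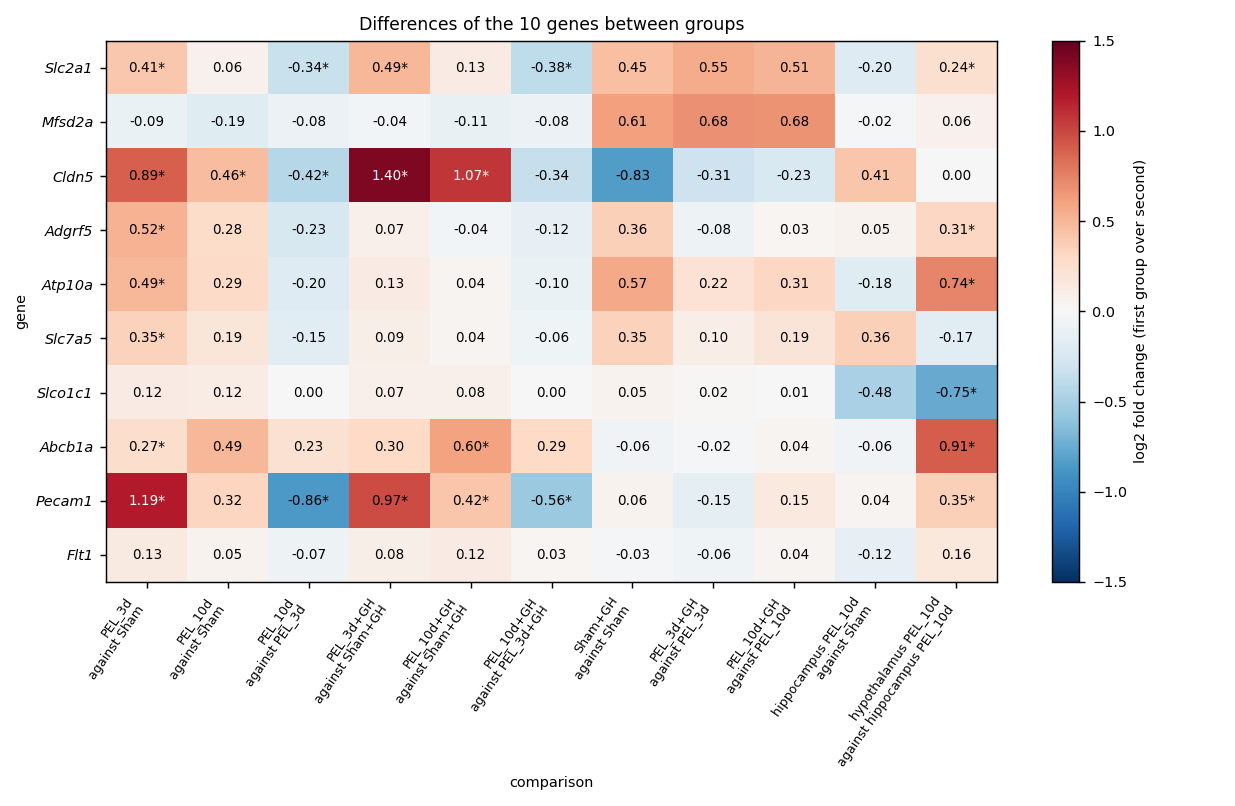
Log2 fold change (colour and number) of the 10 genes (rows) in 11 comparisons (columns), first group over second. A star marks an adjusted p under 0.05 in edgeR, and Sham+GH against Sham carries no stars because the genes were chosen with it. Cldn5 and Pecam1 hold the strongest lesion values at day 3, while Abcb1a is highest in PEL_10d against Sham at 0.49. Slc2a1 and Mfsd2a are the pair with values of 0.45 to 0.68 in all 3 growth hormone columns.

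Growth hormone was compared with none in 3 states. In Sham+GH against Sham, the contrast used in choosing, 6 of 10 members passed beside 1.09% of 14539 genes, and nothing is read from that count. In PEL_3d+GH against PEL_3d no member passed in edgeR, beside 0.027% of 14798 genes. There 3 members had an unadjusted p under 0.05, beside 6.8% of all genes, and DESeq2 called 2, Slc2a1 and Mfsd2a, beside 0.399%. In PEL_10d+GH against PEL_10d no member passed, beside 0% of 14763 genes. An unadjusted p under 0.05 was reached by 4 members and 6.14% of all genes, and DESeq2 again called Slc2a1 and Mfsd2a, beside 0.244%. Without PEL_10d+GH 3, the library high in Pomc, edgeR called no member either.

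Slc2a1, the glucose carrier, rose at day 3 of the lesion and lay higher with growth hormone in all 3 states. Its normalised CPM was 94.7 and 99.3 in Sham, 140.2, 125 and 127 in PEL_3d, and 97.9, 99.9 and 109 in PEL_10d. The libraries with growth hormone read 134, 125 and 140.0 in Sham+GH, 181, 201 and 185 in PEL_3d+GH, and 134, 139 and 166 in PEL_10d+GH. In each state every library with growth hormone lay above every library without it, and PEL_3d+GH was the highest group, with no overlap with any other. PEL_3d exceeded Sham 1.33-fold (log2 0.41 ± 0.07 SE, edgeR adjusted p = 0.00147, range 0.000469 to 0.0321 over the fits that left out 1 library, 0.0846 with Sham 1). In PEL_3d+GH against Sham+GH the fold was 1.41 (log2 0.49 ± 0.07, edgeR adjusted p = 0.000246), with the same gene 0.791-fold in PEL_10d against PEL_3d (log2 -0.34 ± 0.07, edgeR adjusted p = 0.0101). PEL_10d and Sham overlapped (log2 0.06 ± 0.07). The difference with growth hormone was 1.37-fold in Sham, 1.47-fold at day 3 (log2 0.55 ± 0.07) and 1.42-fold at day 10 (log2 0.51 ± 0.09). Its edgeR adjusted p was 0.0626 at day 3 and 0.35 at day 10, and DESeq2 gave adjusted p = 9.21e-07 and 0.000404. The growth hormone difference at day 3 exceeded that in Sham by 0.08 ± 0.10 on the log2 scale, and at day 10 by 0.06 ± 0.12, neither beyond its error.

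Mfsd2a, the lysophospholipid carrier, lay higher with growth hormone in all 3 states and passed in no lesion comparison with all libraries of the groups but Sham 1. Without PEL_3d+GH 3, its highest library, it was lower in PEL_3d+GH than in Sham+GH (log2 -0.22 ± 0.08, edgeR adjusted p = 0.028). Its normalised CPM was 19.8 and 21.5 in Sham, 22.5, 16.4 and 19.9 in PEL_3d, and 20.3, 18.7 and 15.9 in PEL_10d. With growth hormone it was 31.5, 32.2 and 30.9 in Sham+GH, 27.1, 27.3 and 38.4 in PEL_3d+GH, and 32.1, 27.1 and 29.0 in PEL_10d+GH. All 9 libraries with growth hormone lay above all 8 without it, while the 3 states overlapped within each arm. PEL_3d against Sham gave log2 -0.09 ± 0.13 and PEL_10d against Sham -0.19 ± 0.13, with edgeR adjusted p of 0.608 and 0.414. The growth hormone difference was 1.53-fold in Sham, 1.60-fold at day 3 (log2 0.68 ± 0.16, edgeR adjusted p = 0.415) and 1.60-fold at day 10 (log2 0.68 ± 0.11, edgeR adjusted p = 0.35). DESeq2 gave adjusted p = 0.0396 and 0.00201 for the lesioned states. The differences in Sham and at day 3 were apart by 0.05 ± 0.21 and those in Sham and at day 10 by 0.07 ± 0.15 on the log2 scale. Of 14764 genes with a mean count of at least 10, 37 or 0.251% had every library with growth hormone above every one without it in each of the 3 states, and 2 of the 10 members, Slc2a1 and Mfsd2a, were among them. Another 18 genes, 0.122%, were separated in the other direction, none of them a member. Both shares include the Sham contrast used in choosing, so nothing is read from the members' count.

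**Figure D3:**
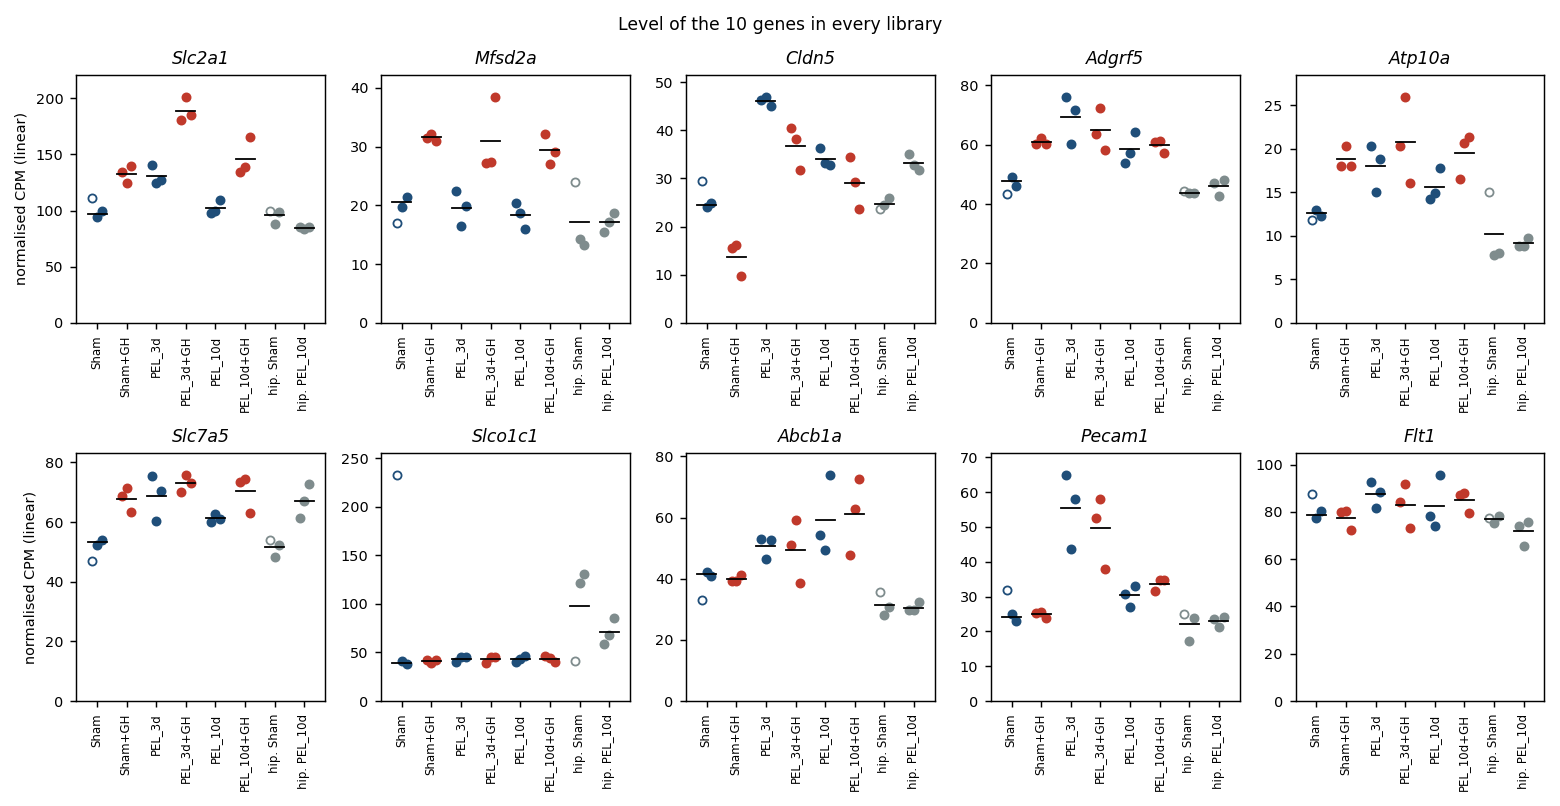
Normalised CPM (linear axes from 0) of the 10 genes in each of the 24 libraries, in blue without growth hormone, red with it and grey for hippocampus (hip.), with bars at group means. Open circles are the libraries labelled Sham 1, left out of its mean, and hippocampus Sham 1, kept in its mean. Slc2a1 and Mfsd2a show the red points above the blue ones in each state, and Cldn5 shows them below in Sham and PEL_3d.

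Cldn5, the tight junction claudin, rose after the lesion and was lower with growth hormone in Sham. Normalised CPM was 24.1 and 25.0 in Sham, 46.4, 46.9 and 45.1 in PEL_3d, and 36.3, 33.2 and 32.8 in PEL_10d, so the 3 groups did not overlap. PEL_3d exceeded Sham 1.85-fold (log2 0.89 ± 0.09, edgeR adjusted p = 2.2e-05) and PEL_10d did so 1.38-fold (log2 0.46 ± 0.09, edgeR adjusted p = 0.0165). The day 10 call was lost in 4 of 12 other fits, with adjusted p of up to 0.302. With growth hormone the levels were 15.4, 16.1 and 9.72 in Sham+GH, 40.5, 38.3 and 31.7 in PEL_3d+GH, and 34.5, 29.2 and 23.7 in PEL_10d+GH. Sham+GH was the lowest of all hypothalamic groups, at 0.562 times Sham. From there the lesion comparison gave 2.65-fold at day 3 (log2 1.40 ± 0.17, edgeR adjusted p = 0.000105) and 2.10-fold at day 10 (log2 1.07 ± 0.19, edgeR adjusted p = 0.0022). In the lesioned states the growth hormone difference was -0.31 ± 0.10 at day 3, where the groups did not overlap, and -0.23 ± 0.13 at day 10, where they did, with edgeR adjusted p of 0.655 and 0.842. PEL_10d+GH 3 had the lowest Cldn5 of its group as well as the high Pomc, and without it the day 10 difference was -0.10 ± 0.11 on the log2 scale. The Sham difference was -0.83 ± 0.16, and those at day 3 and day 10 were closer to 0 by 0.51 ± 0.22 and 0.61 ± 0.24, differences that did not pass in edgeR (adjusted p = 0.433 and 0.488) and that use the contrast the gene was chosen on.

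Of Pecam1 and Flt1, both endothelial genes, only Pecam1 passed in PEL_3d against Sham, and neither passed in PEL_10d against Sham. Their changes were not tested against each other. Pecam1 had normalised CPM of 24.9 and 23.1 in Sham and 64.8, 43.8 and 58.0 in PEL_3d, falling to 30.7, 27.1 and 33.1 in PEL_10d. It rose 2.28-fold at day 3 (log2 1.19 ± 0.15, edgeR adjusted p = 0.000121), the largest rise of the 10 genes, and was 0.55-fold in PEL_10d against PEL_3d (log2 -0.86 ± 0.14, edgeR adjusted p = 0.0029). With growth hormone it was 25.4, 25.6 and 23.9 in Sham+GH, 52.6, 58.1 and 38.03 in PEL_3d+GH, and 31.7, 34.7 and 34.8 in PEL_10d+GH. The same order of states thus appeared in both arms, and each arm with growth hormone overlapped its partner without it. Against Sham+GH the rise was 1.96-fold at day 3 (edgeR adjusted p = 0.000283) and 1.34-fold at day 10 (edgeR adjusted p = 0.00226). Flt1 had 77.3 and 80.5 in Sham and 92.9, 81.7 and 88.3 in PEL_3d, a log2 difference of 0.13 ± 0.07 that did not pass (edgeR adjusted p = 0.188). It passed in no comparison unless a library was left out, and then in PEL_3d against Sham without PEL_3d 2 (log2 0.19 ± 0.07, edgeR adjusted p = 0.0435) and in PEL_3d+GH against Sham+GH without PEL_3d+GH 3 (log2 0.18 ± 0.07, edgeR adjusted p = 0.0401).

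Abcb1a, the efflux pump, rose in PEL_3d against Sham and in PEL_10d+GH against Sham+GH. Its normalised CPM was 42.2 and 40.9 in Sham, 53.1, 46.3 and 52.7 in PEL_3d, and 54.3, 49.4 and 73.8 in PEL_10d. PEL_3d exceeded Sham 1.20-fold (log2 0.27 ± 0.09, edgeR adjusted p = 0.0299), a call kept in 5 of 12 other fits. PEL_10d against Sham gave 1.41-fold (log2 0.49 ± 0.15, edgeR adjusted p = 0.0859), and DESeq2 called it. With growth hormone the values were 39.3, 39.4 and 41.1 in Sham+GH and 47.7, 62.8 and 72.5 in PEL_10d+GH, 1.51-fold apart (log2 0.60 ± 0.12, edgeR adjusted p = 0.00518, called in 12 of 12 other fits). PEL_3d+GH, at 50.9, 59.3 and 38.5, overlapped Sham+GH through its lowest library and did not pass (log2 0.30 ± 0.13, edgeR adjusted p = 0.0903), but passed without that library, PEL_3d+GH 3 (log2 0.46 ± 0.08, edgeR adjusted p = 0.000323). Growth hormone itself left the libraries overlapping in each state. Abcb1a shares much of its sequence with Abcb1b, so reads may have been split or lost between them in counting.

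Adgrf5, Atp10a and Slc7a5 each rose at day 3 without growth hormone, and none passed in PEL_3d+GH against Sham+GH. All 3 genes had passed upward in Sham+GH against Sham, the contrast used in choosing, and each comparison shares libraries with it. Nothing is therefore read from the difference between these comparisons. Adgrf5 had normalised CPM of 49.2 and 46.2 in Sham and 76.1, 60.3 and 71.8 in PEL_3d (1.43-fold, log2 0.52 ± 0.10, edgeR adjusted p = 0.00209). Atp10a had 13.0 and 12.3 in Sham and 20.3, 15.02 and 18.8 in PEL_3d (1.41-fold, log2 0.49 ± 0.14, edgeR adjusted p = 0.0192, kept in 5 of 12 other fits). Slc7a5 had 52.5 and 54.1 in Sham and 75.4, 60.4 and 70.5 in PEL_3d (1.27-fold, log2 0.35 ± 0.09, edgeR adjusted p = 0.0133, kept in 9 of 12). PEL_3d lay above Sham without overlap for all 3, as it did for Flt1, which did not pass. The share of all genes so separated was not counted, so nothing is read from this separation. PEL_3d 2 was the lowest PEL_3d library for each of the 3 genes. With growth hormone in Sham the levels were 60.3, 62.4 and 60.2 for Adgrf5, 18, 20.4 and 17.97 for Atp10a, and 68.6, 71.5 and 63.6 for Slc7a5. These Sham+GH levels overlapped the PEL_3d levels for Adgrf5, Atp10a and Slc7a5, and the difference of PEL_3d+GH from Sham+GH was 0.07 ± 0.08, 0.13 ± 0.16 and 0.09 ± 0.07 on the log2 scale. In the lesioned states growth hormone moved Atp10a by 0.22 ± 0.17 at day 3 and 0.31 ± 0.13 at day 10, with edgeR adjusted p of 0.87 and 0.791. The corresponding Adgrf5 values were -0.08 ± 0.10 and 0.03 ± 0.08, and those of Slc7a5 were 0.10 ± 0.09 and 0.19 ± 0.08. The growth hormone difference of Adgrf5 at day 3 was below that in Sham by 0.45 ± 0.14, which did not pass over all genes (edgeR adjusted p = 0.251) and which uses the contrast the gene was chosen on. In the 3 interaction tests between states no member passed, beside 0.0462% of 15164 genes for day 3 against Sham, 0% of 15116 for day 10 against Sham and 0% of 15091 for day 10 against day 3. At an unadjusted p under 0.05 there were 3, 2 and 0 members, beside 10.5%, 9.04% and 2.92% of all genes, and DESeq2 called 0 members in each, beside 0.95%, 0.642% and 0%.

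Slco1c1, the thyroxine carrier, passed in no comparison within the hypothalamus and was lower there than in hippocampus. Its normalised CPM in the 17 hypothalamic libraries without Sham 1 stayed between 37.9 and 46.3, and its log2 fold changes between hypothalamic groups ran from 0.00 to 0.12 in size. The library labelled Sham 1 had 232, and 74.4 FPKM against 14.2 and 13.5 in Sham 2 and 3. In the libraries labelled hippocampus it was 41.1, 122 and 131 in Sham 1, which carried hypothalamic markers, Sham 2 and Sham 3 and 59.2, 68.1 and 85.6 in PEL_10d. Ttr stood at 3.995, 4157 and 5224 FPKM in those 3 Sham libraries and at 116, 28.5 and 767 in the PEL_10d libraries, so the pair of hippocampal libraries highest in Ttr had the most Slco1c1. Slco1c1 is also known from choroid plexus, and the part of that tissue in these values was not tested. Without hippocampus Sham 1, Slco1c1 was lower in hippocampal PEL_10d than in Sham (log2 -0.85 ± 0.13, edgeR adjusted p = 0.00985), and with it the value was -0.48 ± 0.43 (edgeR adjusted p = 0.694).

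**Figure D4:**
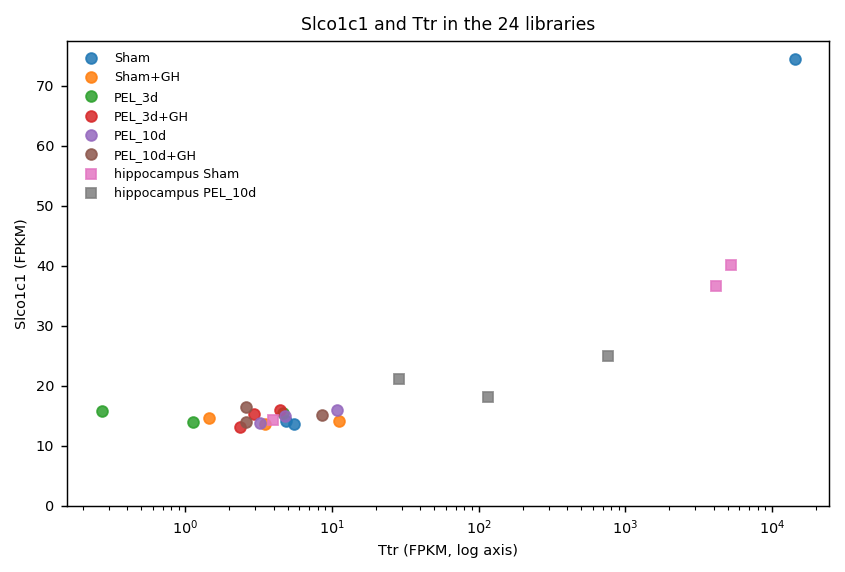
Slco1c1 (FPKM, linear axis) against Ttr (FPKM, log axis), a choroid plexus marker, in each of the 24 libraries, coloured by group, with squares for hippocampus. The library labelled Sham 1 lies far right and highest at 74.4 FPKM of Slco1c1, and hippocampus Sham 1 lies among the hypothalamic libraries.

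In the hippocampus 10 days after the lesion no member passed in edgeR, beside 0% of 14039 genes. Without hippocampus Sham 1 it called 2, Slc7a5 and Slco1c1, beside 6.15% of all genes, with 5 members and 24.5% of all genes at an unadjusted p under 0.05. With that library an unadjusted p under 0.05 was reached by 2 members and 10.2% of all genes, and DESeq2 called 1, Cldn5, beside 1.65%. Cldn5 read 23.6, 24.5 and 25.9 normalised CPM in hippocampal Sham and 35.2, 32.8 and 31.7 in PEL_10d, with no overlap (1.33-fold, log2 0.41 ± 0.09, edgeR adjusted p = 0.33, and 0.0516 without hippocampus Sham 1). Slc7a5 read 54.0, 48.4 and 52.4 against 61.5, 67.2 and 72.9, also with no overlap (1.29-fold, log2 0.36 ± 0.09, edgeR adjusted p = 0.379, and 0.0357 without hippocampus Sham 1). Slc2a1 was lower without overlap, at 99.8, 88.4 and 99.2 in Sham and 85.5, 83.3 and 85.2 in PEL_10d (0.873-fold, log2 -0.20 ± 0.08, edgeR adjusted p = 0.489, and log2 -0.17 ± 0.07 with adjusted p = 0.19 without hippocampus Sham 1). Without hippocampus Sham 1, Mfsd2a and Atp10a lay higher after the lesion without overlap. Mfsd2a read 14.2 and 13.2 in Sham against 15.5, 17.1 and 18.6, and Atp10a 7.74 and 7.97 against 8.87, 8.80 and 9.71. With that library their differences were -0.02 ± 0.25 and -0.18 ± 0.28 on the log2 scale. The share of all genes so separated was not counted. In the hypothalamus PEL_10d against Sham gave 0.46 ± 0.09 for Cldn5, 0.19 ± 0.07 for Slc7a5 and 0.06 ± 0.07 for Slc2a1. The test of hypothalamic against hippocampal PEL_10d effects called no member, beside 1.88% of 15093 genes, with 2 members and 14.9% of all genes at an unadjusted p under 0.05, and 0 members and 5.44% called by DESeq2. Without hippocampus Sham 1 it called 1 member, Slco1c1 (0.94 ± 0.17, edgeR adjusted p = 0.00686), which is about the share of all genes in that fit, 10.7%.

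Between the tissues at day 10 of the lesion, 6 of 10 members passed in edgeR, beside 60.6% of 14561 genes. Higher in hypothalamus were Abcb1a, at 54.3, 49.4 and 73.8 against 29.6, 29.9 and 32.3 normalised CPM (1.88-fold, edgeR adjusted p = 0.000357), and Atp10a, at 14.3, 14.9 and 17.7 against 8.87, 8.80 and 9.71 (1.67-fold, edgeR adjusted p = 0.000777). Neither gene overlapped between the tissues. Slc2a1, Adgrf5 and Pecam1 were higher by 1.18 to 1.28-fold, and Slco1c1 was lower in hypothalamus at 0.594-fold (edgeR adjusted p = 0.000552). Cldn5 gave -0.00 ± 0.08 on the log2 scale, with a level of 34.1 ± 1.9 in hypothalamus and 33.2 ± 1.8 in hippocampus (SD, n = 3). Perivascular fibroblast transcripts, summed over 5 genes, were 98.1 to 231 FPKM in these hypothalamic libraries and 21.9 to 69.5 in the hippocampal ones, and mural cell transcripts 154 to 246 and 75.3 to 80.2. Pan-endothelial sums were 165 to 181 and 136 to 141, microglial 289 to 320 and 152 to 196, and astrocyte 1245 to 1330 and 748 to 883. Neuronal sums were lower in hypothalamus, at 1291 to 1472 and 2666 to 2725. The part of these sums in the tissue differences was not tested.

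Other lists of genes were read beside the share of all genes called in PEL_3d against Sham, where 22.2% rose and 18.2% fell. Of 20 pan-endothelial genes, 19 rose in PEL_3d against Sham and none fell, with a median log2 fold change of 0.85 against -0.01 over all genes. Cd34, a sialomucin of vessels, rose from 21.4 to 72.3 normalised CPM (log2 1.73 ± 0.10, edgeR adjusted p = 8.45e-07), and Vwf, the clotting factor stored by endothelium, from 19.6 to 81.4 (log2 2.03 ± 0.21, edgeR adjusted p = 3.23e-05). Of 10 junction genes, 7 rose and 1 fell, with F11r, a junctional adhesion molecule, at log2 1.80 ± 0.13 and Cdh5, the VE-cadherin, at 1.59 ± 0.24. Of 14 further barrier transporters, 7 rose and 2 fell, and among those that rose were the organic anion carrier Slco2b1 at 1.63 ± 0.09 and the taurine carrier Slc6a6 at 0.84 ± 0.08. Microglial transcripts rose in the same comparison, and the cells that these carrier transcripts came from were not tested. The Wnt barrier programme had 6 of 15 genes higher and 0 lower, among them the ligand Wnt7b at 0.88 ± 0.10 and the co-receptor Lrp5 at 1.08 ± 0.15. Of 9 genes of fenestration and endothelial activation that were tested, 6 rose and 0 fell, with the caveolar coat protein Cavin1 at 1.01 ± 0.09 and the leukocyte adhesion molecule Icam1 at 2.24 ± 0.23. Of 10 VEGF and angiopoietin genes 4 rose, with Angptl4 at 1.79 ± 0.23, and of 12 mural cell genes 8 rose, with Notch3 at 1.23 ± 0.11. Vegfa itself overlapped, at 43.6 to 45.3 normalised CPM in Sham and 44.2 to 44.6 in PEL_3d.

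At day 10, 7.97% of all genes rose against Sham and 1.43% fell. The pan-endothelial list had 4 of 20 genes higher and 0 lower in PEL_10d against Sham (median 0.33) and 12 of 20 lower than in PEL_3d. The junction list had 4 of 10 higher, the transporters 4 of 14 higher and 1 lower with a median of 0.35 against 0.36 at day 3, the Wnt list 1 of 15, fenestration and activation 5 of 8, the VEGF and angiopoietin list 0 of 10 and the mural list 3 of 12 higher. Summed mural transcripts were 155 to 197 FPKM in PEL_3d and 154 to 246 in PEL_10d. Cav1, the main caveolin, was at log2 0.76 ± 0.10 and Icam1 at 1.83 ± 0.25, while Plvap overlapped Sham at 4.65, 3.59 and 3.76 FPKM in PEL_10d.

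**Figure D5:**
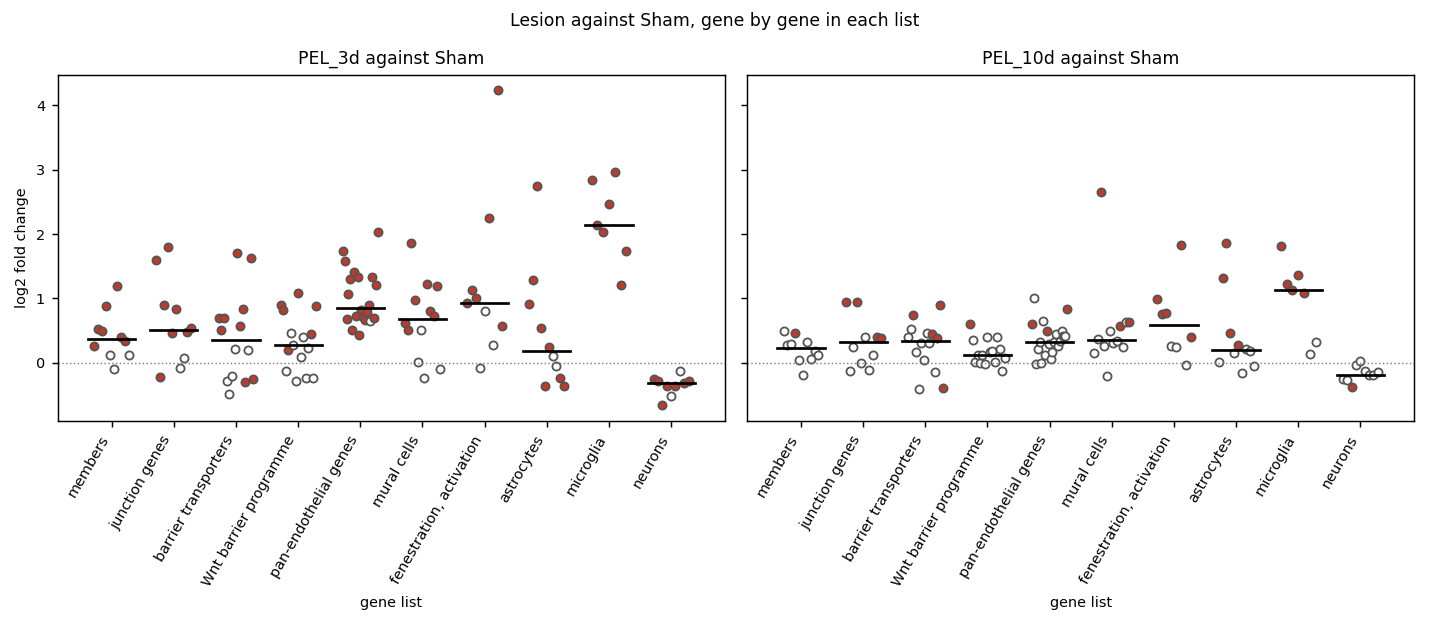
Log2 fold change of each gene (points) in 10 lists for PEL_3d and PEL_10d against Sham, filled where edgeR's adjusted p was under 0.05, with bars at list medians. The pan-endothelial list, the fenestration and activation list and the microglial list sit above 0 at day 3 with medians of 0.85, 0.94 and 2.13, and the 10 members sit at 0.38.

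Other cell types moved with the same groups. Summed microglial transcripts were 133 to 143 FPKM in Sham, 625 to 675 in PEL_3d and 289 to 320.0 in PEL_10d, with 7 of 7 genes higher at day 3 and 5 of 7 at day 10. The 5 perivascular fibroblast genes were all higher at both times, Col3a1 at log2 3.11 ± 0.32 at day 3. Of 10 astrocyte genes 5 rose and 3 fell at day 3, with Gfap at 2.75 ± 0.12, and 4 rose at day 10. Neuronal genes were lower in 7 of 9 at day 3 and 1 of 9 at day 10, and hypothalamic neuron genes in 7 of 9 and 3 of 9. Oligodendrocyte genes passed in 0 of 6 at day 3 and were higher in 3 of 6 at day 10. Of 4 red blood cell genes tested none passed at either time. The choroid plexus list had 1 of 6 genes higher and 2 lower at day 3 and none called at day 10, and the hippocampal list had 1 higher and 2 lower at day 3 and 1 higher at day 10. Of the anterior pituitary genes, a list added after the data were seen, 4 of 7 fell at day 3 and none of 5 passed at day 10. The part of these shifts in the members' values was not tested.

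With growth hormone the same lists held few calls. In Sham+GH against Sham, Fzd4, the Frizzled receptor of the barrier's Wnt signal, was 24.2 against 15.9 normalised CPM (log2 0.61 ± 0.11), and Slco1a4, an organic anion carrier, was 54.7 against 43.5 (log2 0.33 ± 0.07). These were the calls among the lists in that contrast, given as a description because the lists too were chosen with its results known. None of the 20 pan-endothelial, 10 junction, 12 mural or 10 astrocyte genes passed there, a count that says little where 1.09% of all genes did, and the summed pan-endothelial level was 132 to 135 FPKM in Sham+GH and 135 to 136 in Sham. Of the 17 list sums, 3 were lower in Sham+GH without overlap, namely microglia at 104 to 122 FPKM against 133 to 143 in Sham, hypothalamic neurons at 844 to 1203 against 1206 to 1289, and anterior pituitary at 52.2 to 68.7 against 82.2 to 104.6. In PEL_3d+GH against PEL_3d and PEL_10d+GH against PEL_10d no gene of these lists passed in edgeR. At day 3 no list sum separated the libraries with growth hormone from those without, and at day 10, 4 of the 17 lay higher with it. The pan-endothelial sum was 195 to 198 FPKM against 165 to 181, the microglial sum 364 to 439.7 against 289 to 320.0, the oligodendrocyte sum 3832 to 4315 against 3290 to 3464 and the astrocyte sum 1345 to 1779 against 1245 to 1330. Gfap, the largest part of the astrocyte sum, overlapped at 452 to 764 against 355 to 454, and Slc1a3 overlapped at 171 to 188 against 182 to 192. The part of these sums in the members' values was not tested. Fzd4 was nonetheless among the 37 genes with growth hormone above none in all 3 states, reading 14.98 to 16.7 in Sham, 22.1 to 25.4 in Sham+GH, 17.9 to 20.4 in PEL_3d, 25.9 to 29.9 in PEL_3d+GH, 16.6 to 18.5 in PEL_10d and 20.2 to 23.7 in PEL_10d+GH. Vegfa, the ligand of Flt1, and Slc7a1, the cationic amino acid carrier, were among the 18 genes separated downwards. Vegfa read 43.6 to 45.3 in Sham and 35.5 to 41.6 in Sham+GH, 44.2 to 44.6 and 32.4 to 35.7 at day 3, and 33.4 to 41.7 and 29.1 to 31.7 at day 10.

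Over the 17 hypothalamic libraries the members did not vary as one. Among the 45 pairs, the Pearson correlation of log2(FPKM + 0.1) was highest for Cldn5 with Pecam1 (0.75), Slc2a1 with Atp10a (0.75) and Atp10a with Slc7a5 (0.75), and lowest for Mfsd2a with Cldn5 (-0.46). The 5 other genes closest to the members' mean profile, of 13385 with a mean FPKM of at least 1, were Itprid2 (r = 0.96), Vwf (0.96), Myadm (0.95), Susd6 (0.95) and Zfand3 (0.95). These values describe libraries that share group, depth and tissue makeup.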

How the data were processed

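Messenger RNA of 24 libraries was profiled. The authors aligned reads with Hisat2 and counted them with featureCounts, and the submitters' notes name mm10. The deposited table gives estimated counts, of which 8.22% were not whole and all were rounded here, and FPKM made by the authors with a tool and annotation not given in the sources used here. Of 22274 IDs, 22219 matched a symbol. Totals were 15095267 to 17973494 counts per library.

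Members and lists were chosen with earlier results of these data known. Each of 15 comparisons was fitted on its own groups with edgeR 4.0.16 (R 4.3.3), TMM scaling, filterByExpr at a minimum count of 10 and the quasi-likelihood test, with Benjamini-Hochberg adjustment over all genes tested and a threshold of 0.05. Sham 1 was left out. Alternatives were DESeq2 1.42.0, its size factors in edgeR, no filter, a mean count of at least 50, a replicate block, a fit over all 8 groups, each library left out, and Sham 1 included. The scripts were tested on simulated data. From each list, up to 3 called genes of lowest p were named per comparison. Likeness used log2(FPKM + 0.1). Tables were made with pandas 2.3.3.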

Additional observations from a re-analysis of the deposited data

Results flagged for a closer look

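Slco1c1 in the library labelled Sham 1 stood far from the rest, at 74.447 FPKM against 14.2 and 13.5 in Sham 2 and Sham 3. The same library held 14320 FPKM of Ttr and 0.453 FPKM of Avp.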

How the results depend on the processing

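Of the counts of members called, 15 of 96 under other settings and 18 of 108 with a library left out moved by over 1.5 times. Among the named-gene values checked, the direction reversed in 0 of 249 and 0 of 220, but no hippocampal lesion fold change was among them. Without hippocampus Sham 1, mean normalised CPM in hippocampal Sham went from 10.24 to 7.85 for Atp10a, beside 9.13 in PEL_10d. For Mfsd2a it went from 17.15 to 13.71, beside 17.08, so both directions turned. With the library labelled Sham 1 included, the count was 3 in PEL_3d against Sham (11.4% of all genes), 0 in PEL_10d against Sham (1.84%) and 0 in Sham+GH against Sham (0%). DESeq2 called 2 in PEL_10d against Sham (11%), PEL_3d+GH against PEL_3d (0.399%) and PEL_10d+GH against PEL_10d (0.244%), and 1 in hippocampus (1.65%). A fit over all 8 groups called 0 in PEL_10d against Sham (5.41%) and Sham+GH against Sham (0%), and 1 in PEL_3d+GH against PEL_3d (0.00645%), PEL_10d+GH against PEL_10d (0.0129%) and hippocampus (6.55%). Without a filter 1 was called in PEL_3d+GH against PEL_3d (0.0445%). The causes were not tested. The replicate block gave 2 in PEL_10d against Sham (11%) and 0 in PEL_10d+GH against PEL_3d+GH (7.47%), and it moved no other count by over 1.5 times. Same-numbered libraries correlated at -0.352 to 0.298, so the numbers were not taken to pair them.

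With 1 library left out, the shares of all genes called moved too. Counts ran from 4 to 8 in PEL_3d against Sham (22.4 to 44.8% of all genes, 4 without Sham 2 or 3), 0 to 2 in PEL_10d against Sham (1.36 to 10.1%, 0 without Sham 2 or 3, 2 without PEL_10d 2), 0 to 4 in Sham+GH against Sham (0.304 to 1.32%, 0 without Sham 2, 2 without Sham 3 or Sham+GH 1, 3 without Sham+GH 2), 0 to 1 in PEL_3d+GH against PEL_3d (0.00671 to 0.376%, 1 without PEL_3d+GH 3), 3 to 6 in PEL_3d+GH against Sham+GH (41.9 to 59.1%, 6 without PEL_3d+GH 3), 0 to 2 in PEL_10d+GH against PEL_3d+GH (4.70 to 29.6%), 0 to 2 in hippocampus (0 to 6.15%) and 0 to 1 in the tissue interaction (0 to 10.7%), the last pair highest without hippocampus Sham 1. With 2 Sham libraries, leaving one out makes the other's spread an assumption. Sham+GH against Sham is the contrast used in choosing, so nothing is read from how its counts moved.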

Other observations

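Outside the lists, the kinase Sgk1, the co-chaperone Fkbp5 and the transcriptional regulator Tsc22d3 were picked, after their values were seen, from the 37 genes selected for lying higher with growth hormone without overlap in all 3 states. Sgk1 read 37.99 to 59.01 normalised CPM in Sham and 111.3 to 160.3 in Sham+GH, 74.67 to 115.7 and 152.1 to 176.5 at day 3, and 41.21 to 61.8 and 71.4 to 173.6 at day 10. Fkbp5 read 37.8 to 40.0 in Sham and 41.9 to 53.4 in Sham+GH, 42.5 to 46.8 and 62.1 to 70.7 at day 3, and 33.3 to 36.2 and 39.7 to 77.0 at day 10. Tsc22d3 read 71.6 to 79.7 and 106 to 135 in Sham, 49.2 to 53.2 and 71.9 to 88.1 at day 3, and 58.2 to 74.9 and 82.9 to 110 at day 10.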
